A study of Mus musculus with 28 samples.

Results

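The 47 genes described here encode proteins that copy chromosomal DNA, from the complexes that mark origins to the enzymes that supply nucleotides and repack new DNA. They were chosen by name, and each was read through its brightest probe on mouse arrays. A gene was kept where that probe was well above background on 3 or more of 28 arrays. All 47 of 47 were kept, among 19440 genes in all, and 45 of them were above background on every array. The exceptions were Orc1, above background on 22 arrays, and Cdc6, on 25 arrays.

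The arrays hold RNA of T cells sorted from old (20 months) and young (4 months) BALB/c mice. Old CD8, young CD8, old CD4 and young CD4 cells were measured before stimulation (0 h) and at 4, 12, 24 and 72 h of culture on plate-bound antibodies against CD3 and CD28, which act on the antigen receptor and a costimulatory receptor. Each of the 4 groups at 0 h had 3 arrays and each of the 16 stimulated groups had 1, and each pool of RNA combined 4 sorts. The arrays at 0 h are repeats of pools in the labels, so p-values here measure the spread between arrays, which may be technical. The labels disagree on the gate, naming in one place cells with little CD62L and much CD44 and in another naive cells with the opposite phenotype.

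In resting lymphocytes most replication proteins are scarce, and a stimulus through the antigen receptor brings the cell through G1 into S phase over about a day. Origins are bound by the origin recognition complex, licensed by Cdc6 and Cdt1, which load the ring of Mcm proteins, and opened when kinases and further factors turn that ring into an active helicase. Polymerases, the sliding clamp, single-strand binding protein and the enzymes that make deoxynucleotides then carry the fork forward. Transcription of many of these genes is known to be controlled by E2F factors.

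Promoter windows were examined because the members were followed as a group that may move together. RefSeq windows of 300 bases (build GRCm38.p6, 250 bases before to 50 after a gene's start) were matched to 40 of the 47 members, in 49 windows. Gins1, Gins2, Gmnn, Mcm4, Pole, Prim2 and Rfc2 had no match. An E2F-type word (TTTCCCGC, TTTCGCGC, TTTGCCGC or TTTGGCGC, either strand, overlaps counted) was in 14 of 49 member windows, 28.6%, and in 2.26% of all 32851 windows. CHR-type words (TTTGAA or TTCGAA) were in 16.3% of member windows and 19.2% of all windows, and CCAAT was in 49% of member windows and 37.4% of all. Below are windows of Mcm6, Cdc6 and Orc1, which hold the word and rose more than 2.5 log2 units in CD8 cells at 24 h. Then come those of Mcm10, which rose most and holds none within its window, and of Orc3, which holds the word and rose less. Each is written on the strand of its gene, with capitals for E2F-type words in either orientation.
Mcm6, chr1:128359656-128359955, minus strand: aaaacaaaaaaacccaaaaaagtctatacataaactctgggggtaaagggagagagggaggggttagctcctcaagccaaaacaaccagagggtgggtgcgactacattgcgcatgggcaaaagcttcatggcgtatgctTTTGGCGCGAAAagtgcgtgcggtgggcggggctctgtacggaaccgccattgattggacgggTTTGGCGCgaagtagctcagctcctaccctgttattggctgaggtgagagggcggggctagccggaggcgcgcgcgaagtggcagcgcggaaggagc
Cdc6, chr11:98907901-98908200, plus strand: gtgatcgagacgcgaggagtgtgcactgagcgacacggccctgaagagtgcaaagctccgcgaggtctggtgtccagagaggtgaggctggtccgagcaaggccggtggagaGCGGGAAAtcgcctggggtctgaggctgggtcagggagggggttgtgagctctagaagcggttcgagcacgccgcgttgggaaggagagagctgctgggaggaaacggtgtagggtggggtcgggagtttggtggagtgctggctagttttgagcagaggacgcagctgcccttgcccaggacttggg
Orc1, chr4:108579204-108579503, plus strand: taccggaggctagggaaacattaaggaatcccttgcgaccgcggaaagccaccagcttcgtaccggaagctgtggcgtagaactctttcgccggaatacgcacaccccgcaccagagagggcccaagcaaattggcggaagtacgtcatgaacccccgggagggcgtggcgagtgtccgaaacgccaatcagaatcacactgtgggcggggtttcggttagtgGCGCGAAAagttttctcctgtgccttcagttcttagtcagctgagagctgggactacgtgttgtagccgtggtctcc
Mcm10, chr2:5012742-5013041, minus strand: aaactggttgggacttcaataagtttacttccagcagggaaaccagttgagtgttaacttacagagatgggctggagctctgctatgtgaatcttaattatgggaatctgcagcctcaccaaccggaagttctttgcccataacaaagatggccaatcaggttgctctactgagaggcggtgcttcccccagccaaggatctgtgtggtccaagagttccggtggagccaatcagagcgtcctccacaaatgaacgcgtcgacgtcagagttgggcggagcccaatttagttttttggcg
Orc3, chr4:34614893-34615192, minus strand: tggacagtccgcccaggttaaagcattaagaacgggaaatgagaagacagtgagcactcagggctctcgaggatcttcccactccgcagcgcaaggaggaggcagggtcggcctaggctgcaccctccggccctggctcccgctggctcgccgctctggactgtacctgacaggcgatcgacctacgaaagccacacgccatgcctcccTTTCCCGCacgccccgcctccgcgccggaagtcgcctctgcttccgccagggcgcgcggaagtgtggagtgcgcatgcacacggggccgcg
The 3 words of Mcm6 include a pair that overlaps on opposite strands, beginning 110 bases before the start of the gene. The word in Cdc6 begins 138 bases, that in Orc1 27 bases and that in Orc3 41 bases before it. The Mcm10 window ends in tttggcg, all but the last letter of TTTGGCGC, and the base after it was not read. A match is a description of letters and not a bound site.

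Levels below are log2 signals relative to the 75th percentile of the same array, so that 0 is the signal at that percentile, and they are compared only within a probe. Per array, 17254 to 28810 probes exceeded background. Repeat spots scattered more on the 6 arrays of CD4 cells at 12, 24 and 72 h, with a coefficient of variation of 16.8 to 22.1%, against 4.57 to 10.7% on the other 22. Of 1316 member values, 23 fell on spots flagged as outliers and were left out, 20 of them in stimulated CD4 cells. Mcm5 lost 5 values and Mcm3 lost 4, all of them there. Each stimulated time of a cell type was hybridised on slides of its own, so time and slide cannot be told apart. Stimulated CD4 arrays were all read on the same scanner. Most CD4 arrays at 0 h were read on another, with another software version, so time and scanner are partly confounded in CD4 cells. The authors' deposited table of normalised values disagrees with the scanner files for 6 of 28 arrays, those of CD8 cells at 4, 12 and 24 h, which it holds under another of these times. Scanner labels were used, and over genes other than the members 5 of these 6 arrays correlated best with the CD4 arrays of the time in their own label and 0 of 6 with the time in that table. All 9 T cell markers checked were above background at 0 h. Cd8a stood at 6.65 and 6.75 in old and young CD8 cells, against -2.22 and -2.80 in old and young CD4 cells. Cd8b1 stood at 8.6 and 8.8, against 2.64 and 3.20, in the same order. Cd4 stood at -3.30 and -3.31, against -0.76 and 0.10. Zbtb7b, another CD4 T cell marker, stood at -0.69 and -2.91, against 1.61 and 2.38.

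Most replication genes were higher from 12 h of stimulation on, in CD8 and in CD4 cells, and their median stood highest at 24 h in all 4 kinds of cells. Rpa1, Cdc7 and Orc3 were among the members with another course. Over the members, the median level relative to the mean of the 12 arrays at 0 h was 0.28, -0.17, 2.30, 2.64 and 2.21 in old CD8 cells at 0, 4, 12, 24 and 72 h. In young CD8 cells it was 0.09, 0.20, 1.72, 2.66 and 1.20. In old CD4 cells it was -0.13, -0.07, 1.65, 2.69 and 1.00, and in young CD4 cells -0.21, -0.31, 1.36, 2.45 and 1.73. Over all genes the same median stayed between -0.32 and 0.45 in every group. The 3 old CD8 arrays at 0 h had medians between 0.12 and 0.38, a spread far below the rise. In such bulk samples, more cells that express a gene and more RNA per cell cannot be told apart.

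**Figure D1:**
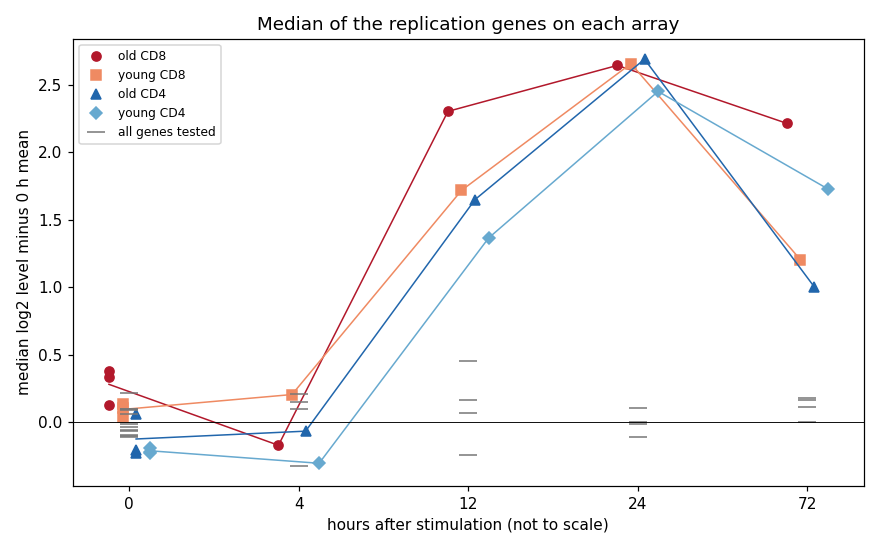
Median over the replication genes of the log2 level minus the mean of the 12 arrays at 0 h (vertical axis) by hours after stimulation (horizontal axis, not to scale), 1 point per array, with lines through the group means and grey dashes for all genes. All 4 kinds of cells lie near 0 at 0 and 4 h and between 2.45 and 2.69 at 24 h, and at 72 h they spread from 1.00 (old CD4) to 2.21 (old CD8).

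**Figure D2:**
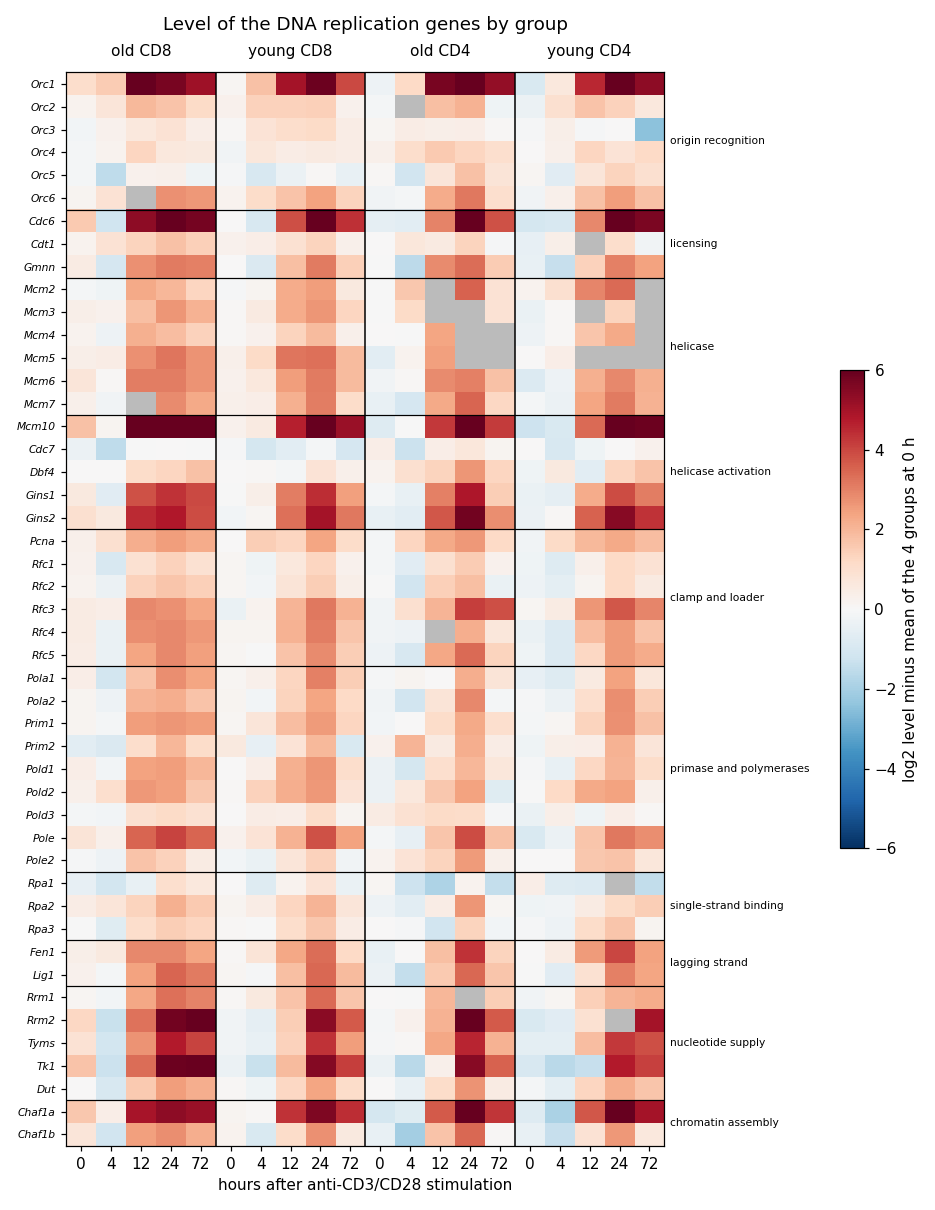
Level of each of the 47 genes (rows, by role) in each of the 20 groups (columns, by cell type, age and hours), as the log2 level minus the mean of the 4 groups at 0 h, with grey for values left out. Red begins at 12 h in most rows, whereas Cdc7 is lower at 4 h, Rpa1 is lower in CD4 cells at 12 and 72 h and Orc3 is lower in young CD4 cells at 72 h.

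Limma over all genes, both ages together, gave the change of each time from 0 h. At 4 h, 3 members were higher and 7 lower in CD8 cells (14.2% of all genes were called higher and 13% lower), with a median of -0.18. In CD4 cells 6 were higher and 6 lower (15.7% and 16.4% of all genes), with a median of 0.13. At 12 h, 37 of 47 were higher in CD8 cells (16% of all genes higher), and 35 of 46 were higher and 1 lower in CD4 cells (24.2% higher and 16.4% lower). At 24 h, 45 of 47 were higher in CD8 cells (16.1% of all genes), with a median of 2.40, and 42 of 46 in CD4 cells (25.1%), with a median of 2.63. At 72 h, 31 of 47 were higher in CD8 cells (13.6%), and 30 of 45 were higher and 2 lower in CD4 cells (22.2% and 16.9%). The shares of members called higher at 12, 24 and 72 h are well above those of all genes, unlike those at 4 h. Of the calls at 4 h, scaling each array to its median left 2 in CD8 cells (Tk1 and Cdc6) and 1 in CD4 cells (Pcna), and the slide as a random block left 1 (Orc5) and 4 (Pcna, Pold2, Orc5 and Cdc7). Under the authors' column labels, 35 members of CD8 cells were higher at 4 h, where the changes of Tk1, Cdc6, Chaf1b, Orc5 and Gmnn turned positive, and 2 were higher and 7 lower at 24 h.

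Against the time before, most rises were called at 12 h. From 4 to 12 h, 33 of 47 members rose in CD8 cells (4.89% of all genes) and 31 of 46 in CD4 cells (15.8%). From 12 to 24 h, 16 of 45 members rose further in CD4 cells (2.45% of all genes), whereas in CD8 cells Tk1 alone did (0.468%). In CD8 cells 13 members had an unadjusted p under 0.05 over that step, as did 1790 of all 19439 genes. The CD4 count of 16 was 5 with median scaling or array weights, 2 with the slide as a random block, 3 with old arrays alone and 0 with young arrays alone. From 24 to 72 h, 27 of 45 members fell in CD4 cells (8.69% of all genes called lower). In CD8 cells none of 47 passed limma's threshold over that step (0.736% of all genes called either way), although 47 of 47 estimates were below 0. Of these, 29 had an unadjusted p under 0.05, as did 2359 of all 19440 genes. The median change was -0.89 over the members and 0.06 over all genes. That step depended on the processing: with normexp background correction 38 members fell in CD8 cells, and the CD4 count was 12 with median scaling, 4 with array weights, 5 with the slide as a random block and 1 with young arrays alone. With the arrays of 1 age alone, the rise from 4 to 12 h in CD8 cells was called for 12 members in old cells and 0 in young cells.

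Within the origin recognition complex, which marks origins, the subunits did not move alike. Orc1, the subunit known to turn over with the cell cycle, stood at -3.59, -3.64 and -4.88 in old CD8 cells at 0 h, then at -3.55, 0.94, 0.63 and 0.02 at 4, 12, 24 and 72 h. In young CD4 cells it stood at -7.04, -6.25 and -4.62 at 0 h, then at -4.43, -0.55, 1.30 and 0.27. All levels from 12 h on lie above all levels at 0 h. At 24 h Orc1 was higher by 5.21 ± 0.67 in CD8 cells (limma adjusted p = 9.6e-06) and by 7.39 ± 0.67 in CD4 cells (adjusted p = 1.1e-07). These values are not exact, since only 4 of 6 CD8 arrays and 2 of 6 CD4 arrays at 0 h were well above background. Orc6 rose at 24 h by 2.38 ± 0.32 and 3.02 ± 0.32 in CD8 and CD4 cells.

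Orc2 was among the few members already higher at 4 h, by 0.82 ± 0.29 in CD8 cells (adjusted p = 0.044) and 1.26 ± 0.40 in CD4 cells (adjusted p = 0.02), the second from a young array alone because the old one was flagged. Both calls were lost with median scaling or the slide as a random block. Orc5 fell at 4 h, by 1.18 ± 0.21 in CD8 cells and by 1.00 ± 0.21 in CD4 cells. At 24 h Orc5 then stood 1.46 ± 0.21 above 0 h in CD4 cells (adjusted p = 2e-05) and 0.26 ± 0.21 above it in CD8 cells (adjusted p = 0.41). Orc4 rose by less than 1.3 log2 units at every time at which it passed. Orc3 rose by 1.04 ± 0.36 in CD8 cells at 24 h, which passed, and stood 0.20 ± 0.36 above 0 h in CD4 cells. Its lower level in CD4 cells at 72 h (-1.22 ± 0.36, adjusted p = 0.011) rests on young CD4 cells at -1.26, since old CD4 cells stood at 1.30. Other probes of Orc3 and Orc4 followed other patterns, with a lowest correlation of -0.10 and 0.25 over the 28 arrays.

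Of the licensing factors, Cdc6, which loads the Mcm ring, stood in old CD8 cells at -2.35, -2.21 and -1.92 at 0 h, then at -4.91, 1.64, 2.85 and 1.99. In young CD8 cells it stood at -3.73, -3.69 and -3.72 at 0 h, then at -4.70, 0.15, 2.84 and 0.66. In old CD4 cells it stood at -4.55, -4.82 and -3.42, then at -4.37, -0.73, 3.47 and 0.08. Cdc6 was lowest at 4 h in CD8 cells of both ages, 1.86 ± 0.52 below 0 h (adjusted p = 0.01), and highest at 24 h in all 4. At 24 h it was higher by 5.78 ± 0.52 in CD8 cells and 7.68 ± 0.52 in CD4 cells, where 3 of 6 arrays at 0 h were above background. Cdt1, its partner in loading, rose by 1.30 ± 0.24 in CD8 cells and 1.45 ± 0.24 in CD4 cells at 24 h. Gmnn, the inhibitor of Cdt1, fell at 4 h by 1.18 ± 0.35 in CD8 cells and by 1.24 ± 0.35 in CD4 cells, and at 24 h was higher by 2.87 ± 0.35 and 3.42 ± 0.35. Both of its calls at 4 h were lost with median scaling or the slide as a random block.

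All 6 subunits of the Mcm2-7 helicase rose in CD8 cells at 24 h, by 1.75 (Mcm4) to 2.94 (Mcm5). Mcm6 stood at 5.37, 5.16 and 4.99 in old CD8 cells at 0 h, then at 4.50, 7.50, 7.50 and 7.12. Young CD8 cells had 4.80, 4.68 and 4.65, then at 5.06, 6.94, 7.57 and 6.33. The levels from 12 h on are above all those at 0 h, and old CD8 cells alone kept more than 7 at 72 h. In CD4 cells at 24 h Mcm2, Mcm3, Mcm4, Mcm6 and Mcm7 rose by 1.83 to 3.58, the Mcm3 and Mcm4 values from 1 array each. Mcm5 could not be fitted there with flagged spots left out, and with them kept it stood 0.62 ± 0.62 above 0 h (adjusted p = 0.45).

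Among factors that turn the ring into a working helicase, Mcm10 rose most of all members at 24 h. It stood at 0.59, 0.40 and -0.67 in old CD8 cells at 0 h, then at -1.46, 4.72, 5.20 and 4.89 at 4, 12, 24 and 72 h. Young CD8 cells had -1.09, -1.53 and -1.58, then at -1.10, 3.04, 5.14 and 3.54. In old CD4 cells it stood at -2.75, -2.78 and -1.66, then at -1.68, 2.62, 5.42 and 2.54. At 24 h the 4 groups lay within 5.14 to 5.42, although CD8 and CD4 cells had differed at 0 h. The rise at 24 h was 5.81 ± 0.53 in CD8 cells (adjusted p = 2.8e-07) and 7.92 ± 0.53 in CD4 cells (adjusted p = 5.1e-09). Gins1 and Gins2, of the complex that joins Mcm2-7 and Cdc45, rose by 4.10 ± 0.40 and 4.50 ± 0.34 in CD8 cells and by 4.66 ± 0.40 and 6.05 ± 0.34 in CD4 cells.

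The kinase that fires origins behaved otherwise. Cdc7, its catalytic subunit, stood at 0.77, 0.80 and 0.26 in old CD8 cells at 0 h and at -0.55, 0.94, 0.98 and 0.92 afterwards. In old CD4 cells it stood at 1.26, 1.25 and 1.63, then at -0.31, 1.34, 1.64 and 1.12. It fell at 4 h, by 1.07 ± 0.28 in CD8 cells (adjusted p = 0.0071) and by 1.35 ± 0.28 in CD4 cells, and at 24 h lay 0.17 ± 0.28 and 0.13 ± 0.28 above 0 h, neither of which passed. It was the member that reached 1 log2 unit above its own 0 h mean in none of the 4 groups. Dbf4, its activator, rose by 1.05 ± 0.38 in CD8 cells and 1.97 ± 0.38 in CD4 cells at 24 h, but another Dbf4 probe ran against this one (r = -0.41 over arrays).

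**Figure D3:**
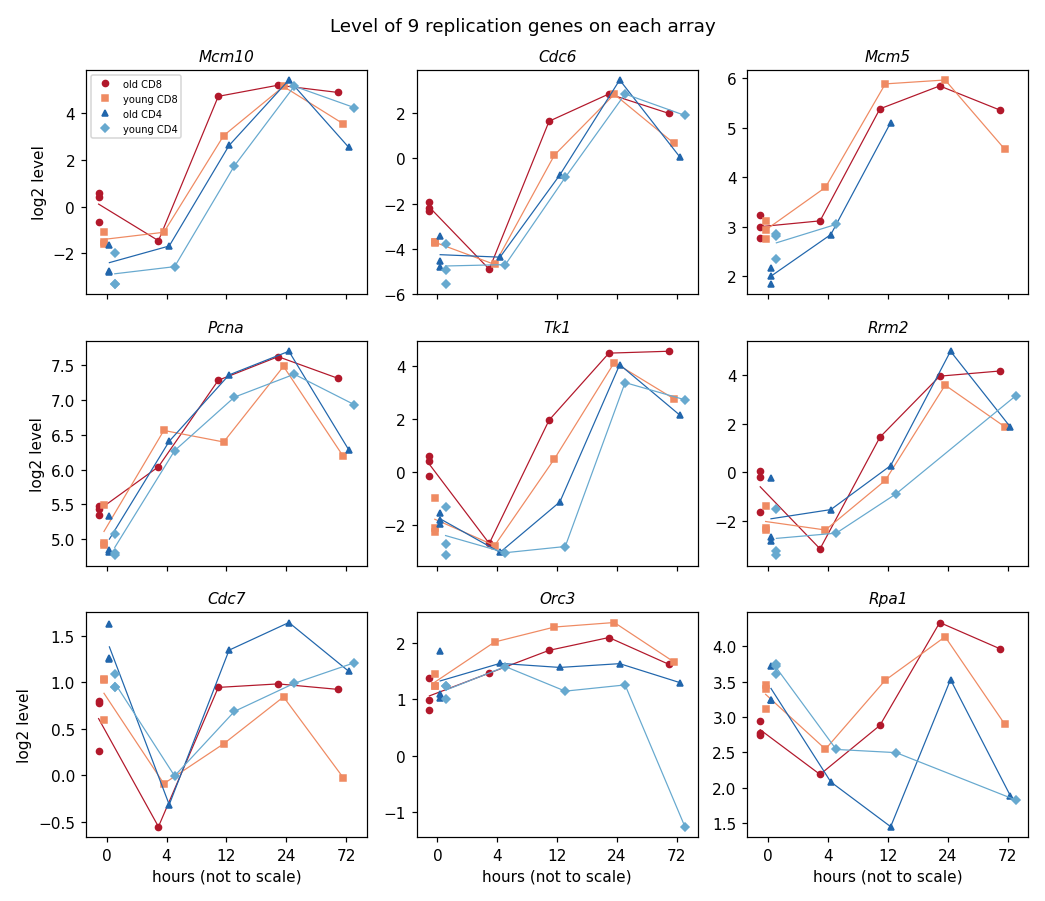
Log2 level of 9 members on each array (points) by hours after stimulation (not to scale), with lines through group means. Mcm10, Cdc6, Tk1 and Rrm2 climb by several units, Pcna is already up at 4 h, Cdc7 dips at 4 h, Orc3 is low on the young CD4 array at 72 h, and Rpa1 is low on CD4 arrays of both ages at 4, 12 and 72 h.

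Pcna, the sliding clamp, had the largest rise among the members called higher at 4 h. It stood at 5.47, 5.34 and 5.44 in old CD8 cells at 0 h, then at 6.04, 7.29, 7.63 and 7.31. Young CD8 cells had 5.48, 4.93 and 4.91, then at 6.56, 6.40, 7.49 and 6.19, and in old CD4 cells at 4.82, 4.85 and 5.33, then at 6.41, 7.36, 7.70 and 6.29. Every stimulated array lay above every 0 h array of its own group. At 4 h it was higher by 1.04 ± 0.28 in CD8 cells (adjusted p = 0.0078) and 1.40 ± 0.28 in CD4 cells (adjusted p = 0.00059). The 5 subunits of its loader all rose at 24 h, by 1.15 (Rfc1) to 2.89 (Rfc3) in CD8 cells and 1.54 (Rfc1) to 3.99 (Rfc3) in CD4 cells. Rfc1, the large subunit, was lower at 4 h in CD8 cells, by 0.80 ± 0.24, which was lost with median scaling or the slide as a random block.

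Of the 9 genes of primase and the replicative polymerases, 9 rose in CD8 cells and 8 in CD4 cells at 24 h. Pole, the catalytic subunit of the leading-strand polymerase, rose most, by 3.44 ± 0.34 in CD8 cells and 4.05 ± 0.34 in CD4 cells. Pold2, an accessory subunit of the lagging-strand polymerase, was already higher at 4 h, by 1.00 ± 0.27 and 1.12 ± 0.27. By 72 h Pold2 was back at its 0 h level in CD4 cells (-0.02 ± 0.27), after a fall of 2.62 ± 0.33 since 24 h (adjusted p = 0.00016). Pold3 changed least, at 1.16 ± 0.32 in CD8 cells and 0.70 ± 0.32 in CD4 cells, the second not passing (adjusted p = 0.083). Prim1, the catalytic primase subunit, rose by 2.44 ± 0.27 and 2.66 ± 0.27.

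Replication protein A, which coats single-stranded DNA, has 3 subunits. In CD4 cells at 12 h 0 of them were called higher and 1, the largest, was called lower. Rpa3 stood at 0.64 on the old and 2.87 on the young CD4 array at that time. Rpa1 stood at 2.74, 2.78 and 2.94 in old CD8 cells at 0 h and at 2.19, 2.88, 4.33 and 3.96 afterwards. In old CD4 cells it stood at 3.24, 3.24 and 3.73, then at 2.08, 1.45, 3.53 and 1.89. At 4 h it was lower in CD4 cells by 1.24 ± 0.29 (limma adjusted p = 0.0029). That call was lost with median scaling or the slide as a random block. It was the member lower in CD4 cells at 12 h (by 1.57 ± 0.29, adjusted p = 0.00029), and it was lower there at 72 h too, by 1.69 ± 0.29 (adjusted p = 0.00017). At 24 h it was higher in CD8 cells by 1.16 ± 0.29, whereas in CD4 cells it stood at 0.17 ± 0.40 from 1 array. Rpa2 rose by 1.79 ± 0.32 and 2.21 ± 0.32 and Rpa3 by 1.54 ± 0.40 and 1.46 ± 0.41 in CD8 and CD4 cells at 24 h. Both genes of lagging-strand maturation rose: Fen1, the flap nuclease, by 2.91 ± 0.34 and 4.40 ± 0.34, and Lig1, the ligase, by 3.30 ± 0.28 and 3.40 ± 0.28.

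Of the nucleotide enzymes, Tk1, thymidine kinase, stood at 0.61, 0.41 and -0.15 in old CD8 cells at 0 h, then at -2.69, 1.95, 4.47 and 4.54. In young CD8 cells it stood at -0.97, -2.10 and -2.25, then at -2.76, 0.50, 4.12 and 2.75. In old CD4 cells it stood at -1.81, -1.94 and -1.53, then at -3.02, -1.12, 4.04 and 2.15, and in young CD4 cells at -2.71, -3.13 and -1.32, then at -3.03, -2.80, 3.36 and 2.72. Tk1 was lowest at 4 h in 3 of these groups and near its lowest in the other, and at 12 h it was above the 0 h arrays in all but young CD4 cells. It fell at 4 h in CD8 cells by 1.98 ± 0.51 (adjusted p = 0.0065). From 12 to 24 h it rose by 3.07 in CD8 cells and by 5.66 ± 0.63 in CD4 cells (adjusted p = 3.8e-05).

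Rrm2, the regulated subunit of ribonucleotide reductase, stood at 0.04, -0.20 and -1.65 in old CD8 cells at 0 h, then at -3.16, 1.44, 3.96 and 4.17. In young CD8 cells it stood at -1.41, -2.30 and -2.40, then at -2.39, -0.34, 3.59 and 1.86. It was higher at 24 h by 5.09 ± 0.74 in CD8 cells and by 7.04 ± 1.01 in CD4 cells, where the young array was flagged. Rrm1, the large subunit, rose less, by 3.26 ± 0.30 and 2.17 ± 0.42. Tyms, thymidylate synthase, rose by 4.20 ± 0.50 and 4.75 ± 0.50, but a pseudogene, Tyms-ps, has nearly the same pattern and another Tyms probe does not (r = 0.26). Dut, which removes dUTP, rose by 2.40 ± 0.31 and 2.48 ± 0.31. Of the chromatin assembly factors, Chaf1a rose by 4.58 ± 0.38 and 7.05 ± 0.38 and Chaf1b by 2.31 ± 0.35 and 3.48 ± 0.35, after Chaf1b had fallen at 4 h by 1.48 ± 0.35 in CD8 cells and 1.26 ± 0.35 in CD4 cells. The calls of Chaf1b at 4 h were lost with median scaling or the slide as a random block.

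The time of onset was taken as the first time at which a member stood 1 log2 unit or more above its own 0 h mean. Onset was at 12 h for 39, 30, 27 and 28 members in old CD8, young CD8, old CD4 and young CD4 cells. It was at 4 h for 0, 4, 7 and 4 members and at 24 h for 4, 8, 7 and 8. In 17 members it was at 12 h in all 4. Orc2, Pcna and Pold2 began at 4 h in young CD8 and in young CD4 cells, as did Orc1, which was above background on 6 of the 12 arrays at 0 h and was not called at 4 h. Orc1, Pcna and Pold2 also began at 4 h in old CD4 cells, where Orc2 could not be dated because its value at 4 h was left out. Old and young cells had the same onset in 29 of 40 members dated in both for CD8 cells and in 28 of 38 for CD4 cells. CD8 and CD4 cells had the same onset in 25 of 38 members in old cells and in 32 of 37 in young cells. Among those that differed, Cdt1, Pola1, Pola2, Rpa3 and Tk1 were earlier in old CD8 than in old CD4 cells, and Orc1, Mcm2, Mcm3, Pcna, Rfc1, Rfc3, Prim2 and Pold2 later. Another probe of Pola2 had a correlation of 0.09 with the one used, over the 28 arrays. The highest measured level was at 24 h in 35, 45, 40 and 37 members. With 1 array per stimulated group these are descriptions without a test.

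**Figure D4:**
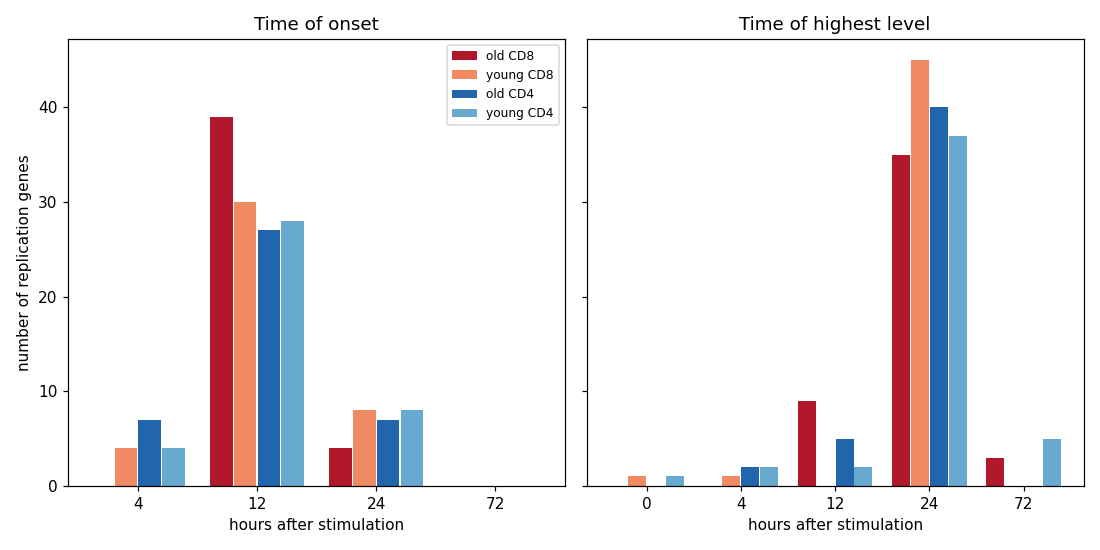
Number of replication genes (vertical axis) by time of onset (left) and by time of the highest measured level (right) in old CD8, young CD8, old CD4 and young CD4 cells. Onset is at 12 h in 27 to 39 members and the highest level at 24 h in 35 to 45.

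Before stimulation 15 of 47 members were higher in CD8 than in CD4 cells in the 12 arrays (8.74% of all genes) and 1 was lower (4.91%), with a median of 0.41 over the members and 0.02 over all genes. Mcm10 was 1.99 ± 0.33 higher (adjusted p = 0.004), Chaf1a 1.81 ± 0.23 (adjusted p = 0.00075), Cdc6 1.58 ± 0.32 (adjusted p = 0.011), Tk1 1.33 ± 0.34, Mcm6 1.00 ± 0.12 and Pole 1.00 ± 0.11. Mcm6 stood at 4.65 to 5.37 in the 6 CD8 arrays, against 3.39 to 4.42 in the 6 CD4 arrays, with no overlap. Rpa1 was the member lower in CD8 cells, by 0.48 ± 0.13 (adjusted p = 0.038). Scaling each array to its median left 4 members called, all higher, and leaving out old CD8 replicate 2 left 9. Of 7 NK cell markers 4 were also higher in CD8 cells, with a median of 2.90, as were 3 of 11 B cell markers, with a median of 0.57, and 5 of 28 genes of mitosis, with a median of 0.86. Their part in the difference was not tested. CD8 and CD4 arrays lay on different slides and 4 CD4 arrays shared the scanner of the CD8 arrays, so cell type and slide cannot be told apart.

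Old and young cells were compared first at 0 h. In CD8 cells none of 47 members passed (limma, 2.21% of all genes called either way). An unadjusted p under 0.05 was found for 13 of them and for 2223 of all 19440 genes. The values nearest the threshold were all higher in old cells: Gins2 by 1.14 ± 0.25 (adjusted p = 0.051), Chaf1a by 1.43 ± 0.33 (adjusted p = 0.056) and Tk1 by 2.07 ± 0.48 (adjusted p = 0.062). Gins2 stood at -0.30, -0.38 and -1.13 in old CD8 cells, against -2.07, -1.61 and -1.55 in young ones. All old CD8 arrays lay above all young ones in 14 members (10.7% of all genes) and below them in 3 (11.1%). With the slide as a block 7 members passed, all higher in old cells (5.6% of all genes called higher): Cdc6 (adjusted p = 0.002), Gins2, Chaf1a, Pole, Mcm10, Tk1 and Gins1. The age difference of Cdc6 was 1.81 on one slide and 1.42 on the other, whereas those of Mcm10, 0.42 and 2.05, and of Tk1, 0.82 and 2.69, differed between them. Over the members the median was -0.05 on the first slide (1 old and 1 young array) and 0.29 on the second (2 of each). Higher levels in old CD8 cells were not particular to the members. The median over 28 genes of mitosis was 1.32, with 1 called higher (limma, 1.69% of all genes), against 0.13 over the members. In CD4 cells these medians were 0.47 and 0.17, with no gene of mitosis called.

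In CD4 cells at 0 h Pole passed, at 0.29, 0.41 and 0.62 in old cells, against -0.39, -0.38 and -0.25 in young cells. It was 0.78 ± 0.15 higher in old cells (adjusted p = 0.039), 1 of 47 members against 1.21% of all genes called higher. The call was lost on leaving out 9 of the 12 arrays singly, and with the replicate number as a block. With the slide as a block 8 members passed, 6 higher in old cells (Cdc7, Dbf4, Cdt1, Mcm6, Pole and Pold3) and 2 lower (Mcm5 and Fen1), where 10.9% of all genes were called higher and 11.9% lower. The age difference itself differed between CD8 and CD4 cells for 0 of 47 members (limma, 0.0514% of all genes called), and for 6 with the slide as a block (13.4% of all genes). Without that block, 4 members and 2226 of all 19440 genes had an unadjusted p under 0.05. The summed signal of 11 B cell markers, in units of the 75th percentile, moved with age too, at 17.0 to 26.0 in old CD8 cells, against 10.8 to 12.2 in young ones, and at 10.9 to 12.1 in old CD4 cells, against 2.93 to 4.95 in young ones. For 13 myeloid markers it was 145 to 253 in old and 66.3 to 109 in young CD8 cells, and 80.2 to 326 in old and 56.1 to 285 in young CD4 cells. For 5 plasma cell and plasmablast markers it was 8.90 to 14.5 in old and 2.32 to 6.59 in young CD8 cells, and 5.48 to 43.4 in old and 4.05 to 9.25 in young CD4 cells. For 7 NK cell markers it was 55.1 to 62.9 in old and 44.3 to 61.8 in young CD8 cells, and 3.67 to 5.23 in old and 3.88 to 5.42 in young CD4 cells. By limma 2 of 11 B cell and 1 of 5 plasma cell and plasmablast markers were called higher in old CD8 cells (1.69% of all genes). In old CD4 cells 4 of 11 B cell markers were called higher (1.21% of all genes). No myeloid or NK cell marker was called in either cell type. The part of these markers in the age differences was not tested.

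After stimulation age was tested over the 4 times together. Of 47 members 0 passed in CD8 cells (0.412% of all genes called) and 0 in CD4 cells (0.113%), both by limma. An unadjusted p under 0.05 was found for 1 member and 1762 of all 19440 genes in CD8 cells. In CD4 cells it was found for 0 members and 1771 of 19439 genes. The median difference, old minus young, was 0.28 in CD8 cells and 0.07 in CD4 cells, against -0.05 and 0.03 over all genes. In CD8 cells 43 of 47 estimates were above 0, but all members were read on the same arrays, so these are not separate observations. Without 72 h the members' medians were 0.08 and 0.33, without 12 h 0.17 and -0.14, and without 24 h 0.42 and -0.08. The age difference also did not pass as changed by stimulation for any member, in CD8 cells (0.0103% of all genes called) or in CD4 cells (0%). Without adjustment, p was under 0.05 for 2 members and 1229 of all 19440 genes in CD8 cells. In CD4 cells it was so for 1 member and 763 of 19439 genes.

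By single times, with 1 array per age and no test, the sign of the difference varied. In CD8 cells the median, old minus young, was -0.43, 0.61, 0.02 and 1.03 at 4, 12, 24 and 72 h. At 72 h 46 of 47 members were higher on the old CD8 array, 25 of them by 1 log2 unit or more, against 54.1% of all genes higher and 14.7% by 1 or more. Rrm2 stood at 4.17 on the old and 1.86 on the young CD8 array, Tk1 at 4.54 and 2.75, Gmnn at 6.51 and 4.90, and Chaf1b at 4.24 and 2.64. In CD4 cells the median was 0.07, 0.30, 0.38 and -0.72, and at 72 h 5 of 43 members were higher on the old array. There Cdc6 stood at 0.08 on the old and 1.90 on the young array, Mcm10 at 2.54 and 4.24, Gins1 at 0.29 and 1.87, and Tyms at 3.13 and 4.90. So at 72 h the old array was the higher one in CD8 cells and the lower one in CD4 cells for most members. Some arrays differed broadly: at 12 h 24.9% of all genes were lower by 1 or more on the old CD8 array, which lay on another slide than the young one. At 72 h 17912 probes exceeded background on the old CD8 array and 23640 on the young one.

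**Figure D5:**
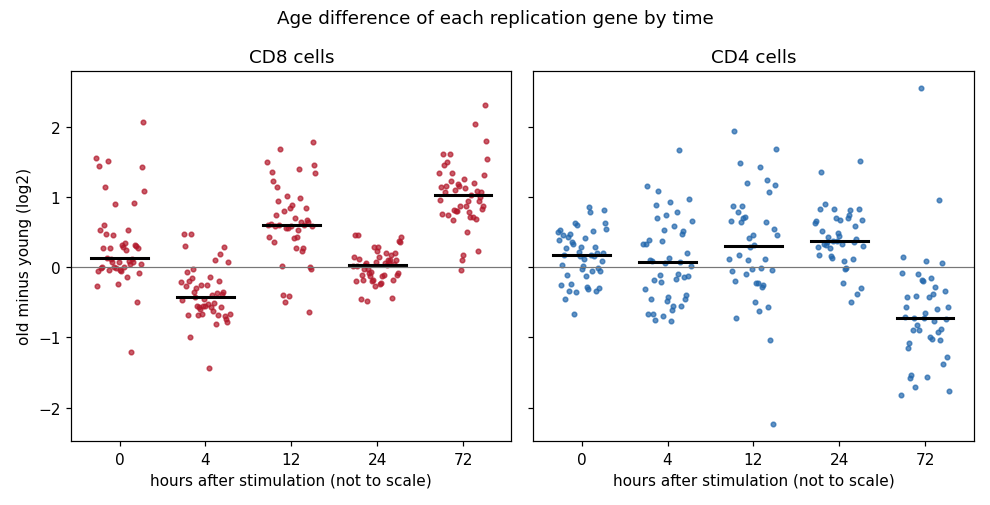
Old minus young log2 level of each replication gene (points) by hours after stimulation (not to scale) in CD8 cells (left) and CD4 cells (right), with black bars for medians; 0 h uses means of 3 arrays and later times 1 array per age. At 72 h the median is 1.03 in CD8 cells and -0.72 in CD4 cells.

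The change from 0 h was then compared between CD8 and CD4 cells. At 4 h 0 of 47 members differed (limma, 0.0617% of all genes called). An unadjusted p under 0.05 was found for 2 members and for 1502 of all 19440 genes. At 12 h Rpa1 differed, with a change 1.70 ± 0.41 higher in CD8 cells (adjusted p = 0.05, 0.465% of all genes called higher). At 24 h the changes of Chaf1a and Orc5 were lower in CD8 than in CD4 cells, at -2.47 ± 0.54 (adjusted p = 0.017) and -1.21 ± 0.30 (adjusted p = 0.031), where 2.88% of all genes were called lower. At 72 h Rpa1 and Orc3 were higher in that difference, by 2.05 ± 0.41 and 1.68 ± 0.51 (3.19% of all genes), and Orc5 was lower, at -1.05 ± 0.30 (5.02%). Over the members the median of this difference was -0.55 at 24 h and -0.22 over all genes. With the slide as a random block no member differed at 12, 24 or 72 h, and with median scaling or the arrays of either age alone none did at 12 or 24 h and 1 did at 72 h. Stimulated CD4 arrays were read on another scanner than all CD8 arrays, so cell type and scanner cannot be told apart here.

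Over the 20 groups, 27 members correlated above 0.9 with the median pattern of the members, as a description over groups that share arrays at 0 h, slides and scaling. Gins1 (r = 0.99) and Rfc5 (0.98) were closest and Orc3 (0.12) and Rpa1 (0.35) farthest. Outside the members the genes most like that median were Mcm8 (0.99), Zwilch (0.98), Fanca (0.98), Hells (0.97) and Fignl1 (0.97).

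Other genes of replication were taken from lists. For comparison, the calls at 24 h covered 16.1% (higher) and 17% (lower) of all genes in CD8 cells, and 25.1% and 19.6% in CD4 cells. Of 25 further fork and origin genes, 19 were higher and 1 lower in CD8 cells at 24 h, with a median of 2.29, and 20 and 1 in CD4 cells, with a median of 2.52. Cdc45, the partner of Mcm2-7 and the Gins complex, rose by 5.04 ± 0.45 in CD8 cells (adjusted p = 2.8e-07), and Ticrr, which acts in origin firing, by 6.17 ± 0.48 in CD4 cells. Of 24 regulators of the G1 to S transition, 16 were higher and 1 lower at 24 h in CD8 cells, and 15 of 23 higher and 0 lower in CD4 cells. Ccne2, a cyclin that drives S phase entry, rose by 4.71 ± 0.63 and 6.25 ± 0.63 and E2f7, a repressor of the E2F family, by 4.93 ± 0.71 and 6.19 ± 0.71. Of 12 genes tied to quiescence, 8 were lower in CD8 cells and 7 lower and 2 higher in CD4 cells. Il7r, the receptor for interleukin 7, fell by 3.80 ± 0.37 and 4.93 ± 0.37.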

How the data were processed

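RNA was amplified, labelled with Cy3 and hybridised to 1-colour mouse arrays, per the labels' protocols. Deposited intensity values came from Agilent Feature Extraction 10.1.1.1 (18 arrays, scanner G2505C) and 9.5.1.1 (10 arrays, scanner G2505B), per the file headers. Deposited flag columns (other) mark background, saturation and outliers. The authors' deposited table of normalised log2 values was used as an alternative; its normalisation is not given in the sources used here.

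Processed signals were put on the log2 scale and each array's 75th percentile subtracted. Control spots and spots flagged as outliers were left out, and repeat spots averaged. The brightest probe stood for a gene. Of 41174 probes, with 27666 symbols, 19440 genes had a probe well above background on 3 or more arrays. Probe names came from 10 of the files and were updated through accessions for 42 members, symbols for 4 and a synonym for 1. For the 26 comparisons limma 3.58.1 was run under R 4.3.3 (eBayes, Benjamini-Hochberg over all genes, threshold 0.05). Time comparisons used all 28 arrays with an age term per cell type, and those at 0 h used 12. Python 3.11.15 was used for summaries. The scripts were tested on simulated data.

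Members and lists were chosen with earlier results of these data known. All members could be named; of another list at most 2 called genes by size, and the 5 genes nearest the members' median pattern. Same-numbered arrays at 0 h deviated together in CD4 cells (r = 0.49 to 0.68), where each such pair shared a slide. So did CD4 arrays of different number on the same slide (old 1 with young 2, 0.45, and old 2 with young 1, 0.52). In CD8 cells same-numbered arrays did not (-0.41 to 0.09), but those numbered 1 and those numbered 3 lay on different slides. CD8 arrays of different number on the same slide had r = 0.34 (old 1 with young 3), 0.32 (old 2 with young 3), 0.34 (old 3 with young 1) and -0.01 (old 1 with young 2). The numbers were therefore not taken to pair the samples. Alternatives covered scaling, background correction, filters, probes, array weights, slide, scanner, age, replicates and onset threshold. All tests were two-sided. Keeping flagged spots and values within the other CD8 slide were chosen after seeing the data. Normexp used median signals, since mean signals were not in every file used here. The number of arrays limits the precision.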

Additional observations from a re-analysis of the deposited data

Results flagged for a closer look

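Changes from 0 h that differed between CD8 and CD4 cells by limma's test of the difference were found for 4 members. Rpa1, the large subunit of the single-strand binding protein, changed by 1.70 ± 0.41 more in CD8 cells at 12 h (adjusted p = 0.0497) and by 2.05 ± 0.41 more at 72 h (adjusted p = 0.00612). Chaf1a, a chromatin assembly factor, had a difference of -2.47 ± 0.54 at 24 h (adjusted p = 0.0169). Orc5 of the origin recognition complex had differences of -1.21 ± 0.30 at 24 h (adjusted p = 0.0308) and -1.05 ± 0.30 at 72 h (adjusted p = 0.039). Orc3 had a difference of 1.68 ± 0.51 at 72 h (adjusted p = 0.0482), which includes the low young CD4 array at -1.26. With the slide as a random block none of these 6 differences passed, and scanner and cell type cannot be told apart in them.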

How the results depend on the processing

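Counts below are members called in either direction, and the cause of a change was not tested. The share of all genes called under each alternative is not given beside them. A count that changes may therefore reflect a change in calls over all genes and not one particular to the members. The rise from 0 h to 12 and 24 h kept its count within 1.5 times under the alternatives run, except CD8 cells at 24 h under the authors' column labels (9). With those labels the counts were 20 for CD4 and 35 for CD8 cells at 4 h, 1, 41 and 27 for the CD8 steps to 12, 24 and 72 h, and 28, 17 and 35 for the CD8 minus CD4 changes at 4, 12 and 24 h. Under them the CD8 changes at 4 h reversed for Tk1 (1.95), Cdc6 (3.82), Chaf1b (1.29), Orc5 (0.021) and Gmnn (2.04), those at 24 h for Mcm10 (-0.61), Cdc6 (-1.85), Rrm2 (-1.44), Tk1 (-1.96) and Chaf1a (-0.66), and the step to 24 h for Tk1 (-7.01).

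At 4 h, CD4 counts were 6 with 0 h arrays of the same scanner, 1 with median scaling, 7 with old or young arrays alone and 4 with the slide as a random block, and CD8 counts were 2 with median scaling, 6 with normexp, 4 with old arrays, 5 with young arrays and 1 with the random block. At 72 h, old arrays gave 19 in CD4 cells and young arrays 20 in CD8 cells. For the step from 4 to 12 h, median scaling gave 18 in each cell type and the random block 20 in each, young arrays gave 9 in CD4 and 0 in CD8 cells, and old arrays 12 in CD8 cells. For the step from 12 to 24 h in CD4 cells, counts were 10 with the same scanner, 5 with array weights or median scaling, 3 with old arrays, 0 with young arrays and 2 with the random block. In CD8 cells they were 3 with array weights or with 14 arrays above background, 4 with normexp, 2 with quantile normalization and 0 with either age alone or the random block. For the step from 24 to 72 h in CD4 cells, counts were 4 with array weights, 12 with median scaling, 17 with no filter or normexp, 16 with old arrays, 1 with young arrays and 5 with the random block, and in CD8 cells 1 with array weights and 38 with normexp.

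Old against young at 0 h gave 15 in CD4 and 17 in CD8 cells with array weights, 8 and 7 with the slide as a block, and 0 in CD4 cells with median scaling or no filter. In CD8 cells it gave 4 with normexp, 2 with quantile normalization and 3 with 14 arrays above background. With the replicate block the CD4 count was 0, and no other call changed. The difference between the cell types' age differences gave 16 with array weights and 6 with the slide block, and the age difference by stimulation in CD8 cells gave 2 with array weights. CD8 against CD4 at 0 h gave 37 with array weights and 4 with median scaling. The CD8 minus CD4 change at 12 h gave 0 with the same scanner, array weights, median scaling, mean of probes, no filter, normexp, either age alone or the random block. At 24 h it gave 6 with array weights, 5 with quantile normalization, 1 with no filter or flagged spots kept, and 0 with median scaling, normexp, either age or the random block. At 72 h it gave 1 with array weights, median scaling, no filter, old arrays or young arrays, and 0 with the random block.

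Leaving out 1 array at 0 h gave 0 to 1 for old against young CD4 cells, 0 to 2 for CD8 cells, 0 to 1 for their difference, 9 to 19 for CD8 against CD4 cells, 1 to 2 and 0 to 1 for the CD8 steps to 24 and 72 h, and 0 to 1, 1 to 3 and 1 to 3 for the CD8 minus CD4 changes at 12, 24 and 72 h. With onset at 0.6, old CD8, young CD8, old CD4 and young CD4 cells had 4, 10, 13 and 9 members at 4 h and 1, 5, 2 and 3 at 24 h. With onset at 2 the last 3 of these had 0 at 4 h, the 4 had 20, 15, 19 and 17 at 12 h and 10, 16, 12 and 14 at 24 h. Median scaling moved the median change of all genes at 24 h to 0.29 in CD8 cells, against -0.10, and to 0.33 in CD4 cells, against 0.07.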

Other observations

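Of 21 genes of nucleotide synthesis outside the members, 12 were higher and 2 lower in CD8 cells at 4 h (14.2% and 13% of all genes), with a median change of 1.19, and 14 were higher and 1 lower in CD4 cells (15.7% and 16.4%), with a median of 1.59. Shmt1, a serine hydroxymethyltransferase, rose by 3.80 and 5.23 in CD8 and CD4 cells, and Mthfd2, a mitochondrial folate enzyme, by 3.77 and 3.45. The members' own medians at 4 h were -0.18 and 0.13.

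Of 28 mitotic genes, 5 were lower in CD8 cells at 4 h (13% of all genes), and 25 were higher at 24 h (16.1%), with a median of 4.20. In CD4 cells 26 of 27 were higher and 1 lower at 24 h (25.1% and 19.6% of all genes), with a median of 4.70. At 72 h 26 were higher in each cell type (13.6% of all genes in CD8 and 22.2% in CD4 cells), with medians of 4.06 in CD8 and 4.16 in CD4 cells.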
